A study of Homo sapiens with 8 samples.

Results

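The genes of the proteasome were followed on microarrays in ST486, an established Burkitt lymphoma cell line, in total RNA and in RNA that co-precipitated with Ago2. Members were all probes, control spots left out, whose RefSeq identifier maps to a symbol beginning with PSMA, PSMB, PSMC, PSMD, PSME, PSMF or PSMG. This gave 67 probes for 48 of the 16557 genes that could be named on the array. Of these, 63 probes for 47 genes were kept, that is, were detected above background in at least 4 of the 8 labelled samples (channels) and differed by no more than 2-fold between the labellings of a sample. They were among 15529 probes kept in all (11044 of them with a gene symbol, for 8315 genes). ST486 cells were transduced with the retroviral vector MXW-PGK-IRES-GFP, either empty (EV-ST486, below EV cells) or with miR-155 (miR-155-ST486, below miR-155 cells), and GFP-positive cells were sorted, so that both groups carried the vector and were sorted for GFP. Each group supplied 1 total RNA and 1 Ago2-IP RNA, and each of these 4 RNA samples was labelled once with Cy3 and once with Cy5. Total and IP RNA of the same cells were hybridised together on 4 arrays, a first dye orientation with total RNA in Cy3 and IP RNA in Cy5, and a second with the dyes exchanged.

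The proteasome degrades proteins tagged with ubiquitin. Its barrel-shaped 20S core is built of rings of alpha subunits (PSMA genes) around rings of beta subunits (PSMB genes), and the beta rings carry the peptide-cutting sites, of PSMB6, PSMB7 and PSMB5. In lymphoid cells and under interferon these are exchanged for PSMB9, PSMB10 and PSMB8, which gives the immunoproteasome that cuts peptides for MHC class I presentation. A 19S cap with a ring of ATPases (PSMC genes) and a set of non-ATPase subunits (most PSMD genes) binds, unfolds and feeds the substrate. The core can instead be opened by PA28 (PSME1 and PSME2, or PSME3) or PA200 (PSME4), PI31 (PSMF1) binds and can inhibit it, and chaperones (PSMG genes, PSMD5, PSMD9 and PSMD10) help to assemble the complex. Ago2 binds miRNAs and, through them, mRNAs with matching sites, so that the ratio of the IP to the total signal (IP/T) measures how much of a transcript, relative to all others, came down with Ago2. A transcript with IP/T below 1 was thus less represented in the IP than in total RNA.

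The miRNA that separates the groups is shown with its seed, bases 2 to 8, in capitals, as RefSeq gives it (GRCh38.p14, chr21:25573983-25574006, plus strand).
hsa-miR-155-5p: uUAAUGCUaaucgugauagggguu
No transcript sequence of the members was searched for sites of this seed.

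With 1 RNA sample per condition there is no biological replicate, the 2 labellings are technical, and no test was made. For counts of direction, a probe was counted only when both dye orientations lay on the same side. Counts at a 2-fold threshold used the mean of the orientations alone. In the processing used in the text, these counts are given beside the share of all 15529 kept probes that met the same rule. Counts within signal quartiles are given beside the share of all kept probes there. Some counts under other processing, and that of the flagged probe, stand without such a share. The EV and miR-155 arrays lay on 2 different slides, so that vector and slide cannot be told apart in any comparison between the cells. Signals are the processed intensities after quantile normalization over the 8 channels, between 14094 and 22161 probes were detected per channel, and 0 probes were saturated. Of the 9 B cell markers found on the array, 6 were detected in all 8 channels and 1, PAX5, in 0. Among the markers of other cell types, CD3E, CD3D, CSF1R, EPCAM and COL1A2 were detected in 0 channels and KRT18 in at most 4. CD14 was detected in 5 channels and CD8A in 8, and neither was kept. Any part of other cell types in the results was not tested.

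The proteasome transcripts were readily detected: 61 of the 63 kept probes were detected in all 8 channels, 38 lay in the highest quartile of mean signal, 19 in the third, 5 in the second and 1 in the lowest. The exceptions were PSMA8, the alpha subunit known from testis, detected in 6 channels, and 1 of the probes of PSME3IP1, detected in 7. Of the 4 probes not kept, the only probe of PSMD2, a large scaffold of the 19S base, and 1 probe each of PSMD5 and PSMF1 differed by more than 2-fold between the labellings of a sample. The remaining one, for PSMD9, was detected in only 3 channels.

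Most proteasome transcripts were less represented in the Ago2-IP than in total RNA. In EV cells, IP/T lay below 1 in both dye orientations for 43 of the 63 probes (68.3%), against 44.7% of all kept probes, and above 1 in both for 11, against 31.4%. In miR-155 cells the corresponding numbers were 44 (69.8%), against 50.6%, and 10, against 33.3%. The median log2 IP/T of the members was -0.43 in EV cells (-0.44 and -0.41 in the first and second orientation), beside -0.15 over all kept probes, and -0.51 in miR-155 cells (-0.61 and -0.49), beside -0.18. Without PSMC3IP and PSME3IP1, which the symbol rule takes although they are binding partners and not subunits, the medians of the remaining 60 probes were -0.43 and -0.44.

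**Figure D1:**
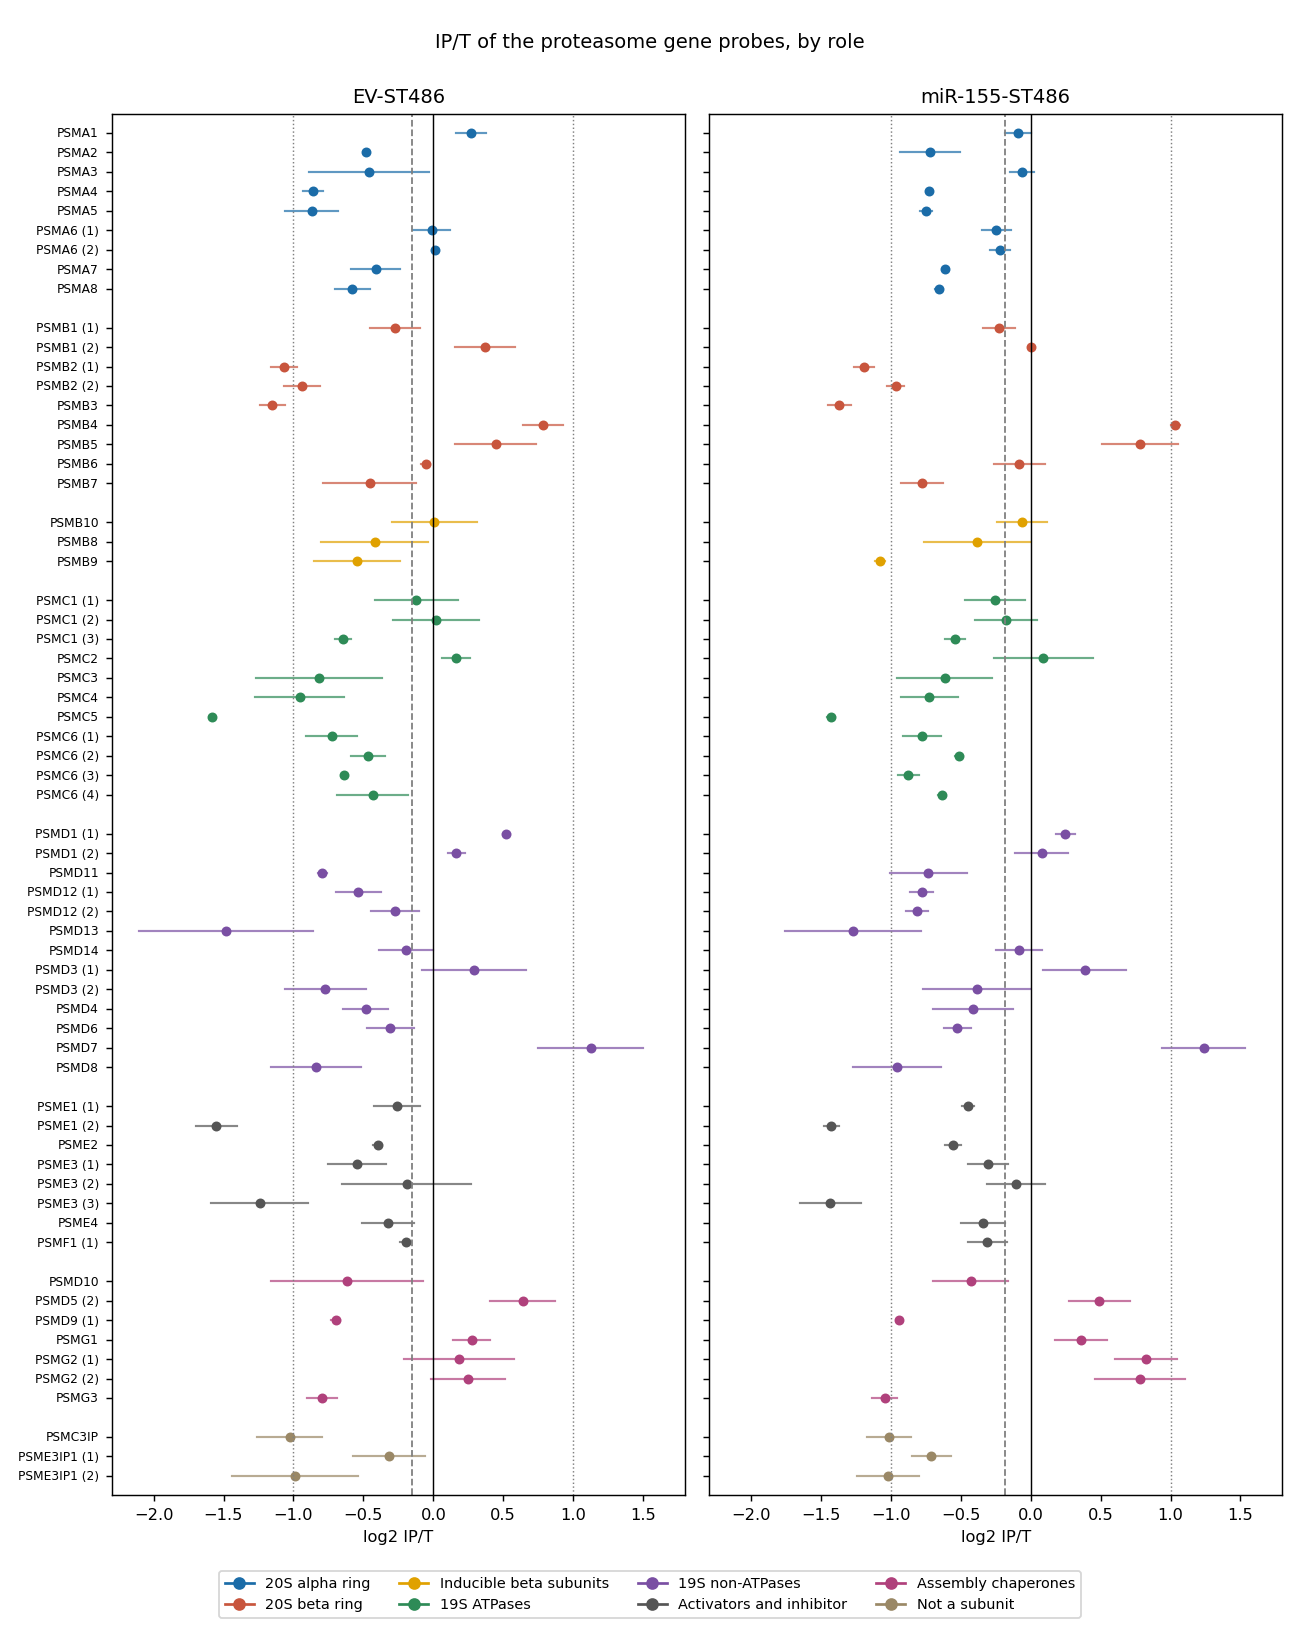
IP/T of each of the 63 kept probes on a log2 scale, EV cells on the left and miR-155 cells on the right, grouped by role. Points are means of the 2 dye orientations, lines join the orientations, dotted lines mark 2-fold, and the dashed line is the median of all kept probes (-0.15 and -0.18). Most points lie left of 0 in both cells, with PSMD7, PSMB4, PSMB5, PSMD5 and PSMG2 to the right in miR-155 cells.

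Members were sparse on the enriched side at 2-fold, but not on the depleted side. An IP/T of at least 2, the threshold at which transcripts were called Ago2-enriched in this study, was reached by 1 member probe in EV cells (PSMD7), against 12.1% of all kept probes, and by 2 in miR-155 cells (PSMD7 and PSMB4), against 12.2%. An IP/T of at most 0.5 was found for 7 probes in EV cells (11.1%), against 10%, and for 10 in miR-155 cells (15.9%), against 9.83%.

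**Figure D2:**
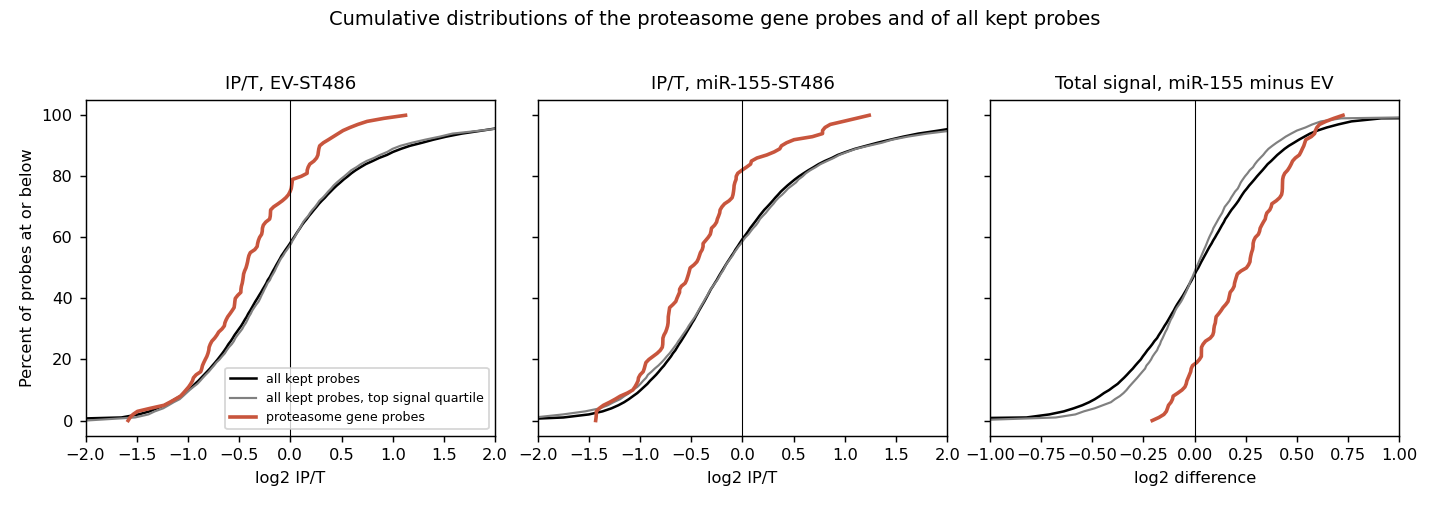
Cumulative percent of probes against log2 IP/T in EV cells and miR-155 cells and against the log2 difference of the total signal between them, for the 63 proteasome gene probes, all 15529 kept probes and the 3883 of these in the highest quartile of mean signal. Over most of its range the proteasome curve lies left of the others for IP/T (medians -0.43 and -0.51 against -0.15 and -0.18) and right of them for the total signal (0.25 against 0.02).

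Since members had high signals, the same counts were read within quartiles of the mean signal. In the highest quartile, 22 of 38 member probes lay below 1 in both orientations in EV cells, against 45.9% of all 3883 probes there, and 23 in miR-155 cells, against 51.8%. In the third quartile the numbers were 16 of 19 in either cells, against 47.0% and 51.8% of 3882 probes. The median log2 IP/T of the members was -0.29 and -0.32 in the highest quartile (-0.14 and -0.18 over all its probes) and -0.64 and -0.73 in the third (-0.17 and -0.20).

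By role, the median log2 IP/T of the 11 probes of 19S ATPases was -0.64 in EV cells, the lowest among the subunits there, and -0.61 in miR-155 cells. It was -0.46 and -0.61 for the 9 alpha ring probes, -0.42 and -0.39 for the 3 inducible beta subunits, -0.36 and -0.40 for the 8 probes of activators and PI31, and -0.31 and -0.41 for the 13 non-ATPase probes. The 9 probes of the constitutive beta ring had medians of -0.27 and -0.22, with values from -1.15 to 0.79 in EV cells, and these medians turned to 0.15 and 0.02 with normexp background correction and loess. The 7 probes of assembly chaperones were the exception, with medians of 0.18 and 0.36 on the enriched side, though their EV median was 0.41 in the first and -0.21 in the second orientation, and their miR-155 median was -0.03 with 1 value per gene.

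In the constitutive 20S core, the cutting subunits of the beta ring did not share a direction. PSMB5, the chymotrypsin-like subunit and the main target of bortezomib, gave signals of 11749 (Cy3) and 10729.7 (Cy5) in EV total RNA, 17848 and 13103 in EV IP RNA, 14962 and 12516 in miR-155 total RNA and 25916 and 21357 in miR-155 IP RNA. All IP signals were above the total signals of the same cells. IP/T of PSMB5 was 1.36 (1.12 and 1.66) in EV and 1.72 (1.43 and 2.07) in miR-155 cells (in parentheses here and below, the first and second dye orientation). For PSMB6, the caspase-like subunit, signals were 23697 (Cy3) and 24045 (Cy5) in EV total RNA, 23679 and 22321 in EV IP RNA, 25879 and 23039 in miR-155 total RNA and 24724 and 21560.5 in miR-155 IP RNA. Its IP/T of 0.963 (0.942 and 0.985) in EV and 0.946 (0.833 and 1.07) in miR-155 cells stayed close to 1, and the IP and total signals overlapped in miR-155 cells. PSMB7, the trypsin-like subunit, had signals of 20949 (Cy3) and 14582 (Cy5) in EV total RNA, 13416 and 12124 in EV IP RNA, 26727 and 24201 in miR-155 total RNA and 15701 and 14039 in miR-155 IP RNA, the IP below the total throughout. IP/T of PSMB7 was 0.73 (0.579 and 0.92) in EV and 0.584 (0.525 and 0.649) in miR-155 cells.

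Among the beta subunits without a cutting site the spread was wider. PSMB4, which is incorporated late in assembly, had the highest IP/T of the ring, with signals of 57225 (Cy3) and 62243 (Cy5) in EV total RNA, 97042 and 109052 in EV IP RNA, 66695 and 63391 in miR-155 total RNA and 132838 and 133557 in miR-155 IP RNA. Its IP/T was 1.72 (1.91 and 1.56) in EV and 2.05 (2.00 and 2.1) in miR-155 cells, and the IP and total signals did not overlap. PSMB3 had the lowest, from signals of 5475 (Cy3) and 5679 (Cy5) in EV total RNA, 2717 and 2322 in EV IP RNA, 7646 and 6594 in miR-155 total RNA and 2701 and 2803 in miR-155 IP RNA. Here every IP signal was below every total signal. IP/T of PSMB3 was 0.45 (0.424 and 0.478) in EV and 0.388 (0.367 and 0.41) in miR-155 cells. Probe A_23_P170058 for PSMB2 had signals of 4071 (Cy3) and 3694 (Cy5) in EV total RNA, 1877 and 1819.6 in EV IP RNA, 4619.5 and 4136 in miR-155 total RNA and 1906 and 1927 in miR-155 IP RNA. IP/T of PSMB2 was 0.477 (0.447 and 0.508) in EV and 0.438 (0.417 and 0.461) in miR-155 cells. The other PSMB2 probe, at 0.521 and 0.512, gave nearly the same depletion. The 2 probes of PSMB1 disagreed in EV cells, where IP/T was 0.828 (0.938 and 0.73) for one and 1.29 (1.11 and 1.5) for the other.

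**Figure D3:**
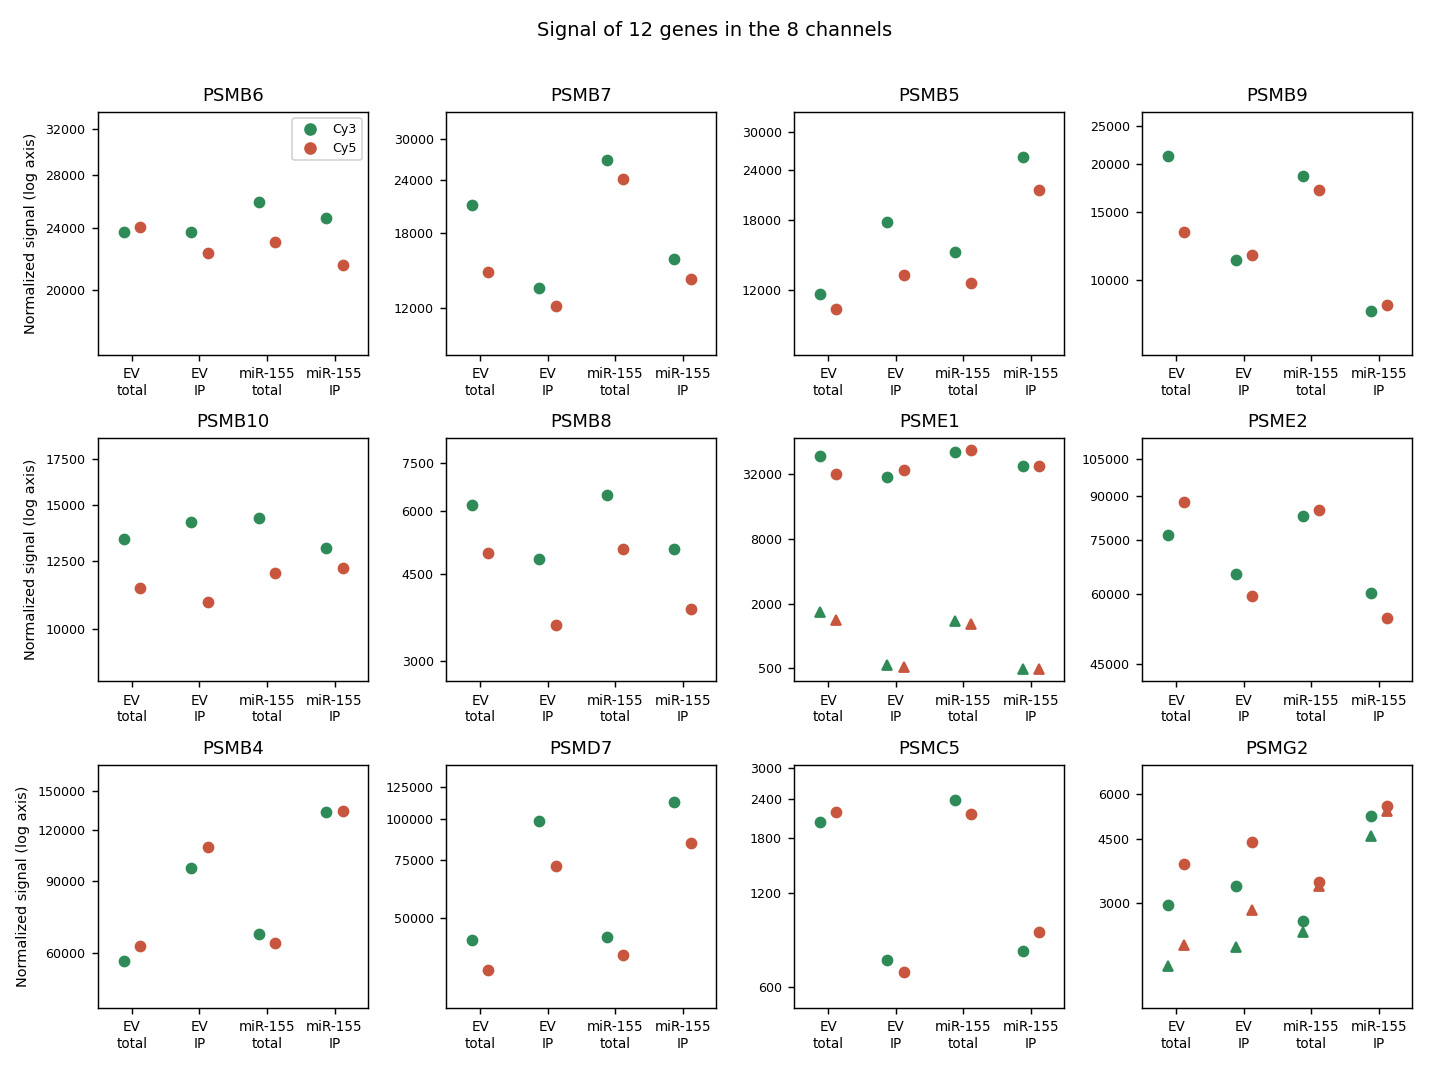
Quantile-normalized signal (log axis) of 12 genes in each of the 8 channels, Cy3 in green and Cy5 in red. PSME1 and PSMG2 have 2 probes, drawn as circles and triangles. The IP signals lie above the total signals for PSMB4, PSMB5 and PSMD7 and below them for PSMC5, PSMB7, PSMB8, PSMB9 and PSME2.

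The alpha ring gates the entry to the core. In EV cells 6 of its 9 probes lay below 1 in both orientations, against 44.7% of all kept probes. In miR-155 cells 7 did, against 50.6%. PSMA5 was lowest in both cells, with signals of 19589 (Cy3) and 25494 (Cy5) in EV total RNA, 12248 and 12221 in EV IP RNA, 22552 and 21673 in miR-155 total RNA and 12494 and 13833 in miR-155 IP RNA. IP/T of PSMA5 was 0.547 (0.624 and 0.48) in EV and 0.595 (0.613 and 0.576) in miR-155 cells. Highest in EV cells was PSMA1, with signals of 12356 (Cy3) and 8754 (Cy5) in EV total RNA, 11369 and 13852 in EV IP RNA, 14343 and 16948 in miR-155 total RNA and 14940.0 and 14343 in miR-155 IP RNA. Its IP and total signals overlapped in both cells, and IP/T was 1.21 (1.12 and 1.3) in EV and 0.939 (1.00 and 0.882) in miR-155 cells. PSMA3, the highest in miR-155 cells, was at 0.727 (0.54 and 0.978) in EV and 0.958 (0.903 and 1.02) in miR-155 cells. PSMA2, PSMA4, PSMA7 and PSMA8 lay between 0.551 and 0.752 in EV cells, on the same side as PSMA5, while the 2 probes of PSMA6 were at 0.991 and 1.01 in EV cells and at 0.844 and 0.86 in miR-155 cells.

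The inducible beta subunits were detected in all 8 channels. PSMB9, the counterpart of PSMB6, gave signals of 20972 (Cy3) and 13248 (Cy5) in EV total RNA, 11208 and 11613 in EV IP RNA, 18533 and 17089.8 in miR-155 total RNA and 8292 and 8568 in miR-155 IP RNA. The IP signals were below the total signals, and lower in miR-155 than in EV cells in both labellings while the total signals overlapped, so that IP/T was 0.684 (0.554 and 0.846) in EV and 0.474 (0.462 and 0.485) in miR-155 cells. PSMB8, the counterpart of PSMB5, had signals of 6186 (Cy3) and 4939.8 (Cy5) in EV total RNA, 4811 and 3552 in EV IP RNA, 6479.8 and 5045 in miR-155 total RNA and 5031 and 3810.4 in miR-155 IP RNA. Its IP/T was 0.748 (0.574 and 0.974) in EV and 0.766 (0.588 and 0.997) in miR-155 cells, close to 1 in the second orientation, and the signals of the 2 cells overlapped. For PSMB10, the counterpart of PSMB7, signals were 13441 (Cy3) and 11411 (Cy5) in EV total RNA, 14194 and 10927 in EV IP RNA, 14399.9 and 11995 in miR-155 total RNA and 13018 and 12205 in miR-155 IP RNA, with overlap throughout. IP/T of PSMB10 was 1.01 (0.813 and 1.24) in EV and 0.959 (0.848 and 1.09) in miR-155 cells. In the RefSeq annotation PSMB8 and PSMB9 lie on either side of TAP1, which encodes a subunit of the transporter that carries the cut peptides into the endoplasmic reticulum. TAP1 also had an IP/T below 1, 0.779 (0.789 and 0.769) in EV and 0.66 (0.778 and 0.56) in miR-155 cells.

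The 19S ATPases unfold the substrate and open the gate of the core. In EV cells 8 of their 11 probes lay below 1 in both orientations, against 44.7% of all kept probes. In miR-155 cells 9 did, against 50.6%. The 4 probes of PSMC6 were among them in both cells. PSMC5 had the lowest IP/T of all members in EV cells, with signals of 2026 (Cy3) and 2173 (Cy5) in EV total RNA, 731 and 670.3 in EV IP RNA, 2372 and 2141 in miR-155 total RNA and 781 and 898 in miR-155 IP RNA. Its IP/T was 0.334 (0.331 and 0.336) in EV and 0.372 (0.379 and 0.365) in miR-155 cells, nearly the same in both orientations. PSMC2 was the highest ATPase, with signals of 5185 (Cy3) and 4507 (Cy5) in EV total RNA, 5419 and 5423 in EV IP RNA, 7554 and 5655 in miR-155 total RNA and 7703 and 6294 in miR-155 IP RNA. IP/T of PSMC2 was 1.12 (1.05 and 1.2) in EV and 1.07 (0.833 and 1.36) in miR-155 cells, above 1 in both orientations only in EV cells. PSMC3 and PSMC4 were at 0.568 and 0.515 in EV cells, and all 4 probes of PSMC6 lay between 0.604 and 0.741 there and between 0.545 and 0.702 in miR-155 cells. PSMC1 had 3 probes between 0.639 and 1.01 in EV cells. RefSeq lists 13 pseudogenes named after PSMC1, the most of any member, and 52 after 21 of the members, and probe sequences were not used here, so that signal from such copies cannot be told apart.

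Among the 19S non-ATPases, PSMD7, a partner of the deubiquitinase PSMD14 in the lid, stood highest of all members. Its signals were 42879 (Cy3) and 34892 (Cy5) in EV total RNA, 98711 and 72099.7 in EV IP RNA, 43996 and 38679 in miR-155 total RNA and 112058 and 84449 in miR-155 IP RNA. Every IP signal exceeded every total signal, and IP/T was 2.18 (1.68 and 2.83) in EV and 2.36 (1.92 and 2.9) in miR-155 cells. PSMD13, another lid subunit, was at the other end, with signals of 3289 (Cy3) and 2167 (Cy5) in EV total RNA, 1194 and 764 in EV IP RNA, 2946 and 2357 in miR-155 total RNA and 1370.0 and 872 in miR-155 IP RNA. IP/T of PSMD13 was 0.358 (0.232 and 0.551) in EV and 0.415 (0.296 and 0.581) in miR-155 cells. All its IP signals were below the total signals, but the orientations differed by more than 2-fold in EV cells. For PSMD1, the large scaffold of the base, probe A_23_P209740 had signals of 6501 (Cy3) and 6298 (Cy5) in EV total RNA, 8914 and 9484 in EV IP RNA, 9940.5 and 11244 in miR-155 total RNA and 12732 and 12356 in miR-155 IP RNA. IP/T of PSMD1 was 1.44 (1.46 and 1.42) in EV and 1.19 (1.24 and 1.13) in miR-155 cells with this probe, short of 2-fold. The other PSMD1 probe was closer to 1, at 1.12 (1.17 and 1.07) in EV and 1.06 (0.926 and 1.2) in miR-155 cells. PSMD8 and PSMD11 lay at 0.559 and 0.577 in EV cells, and PSMD4, a ubiquitin receptor, at 0.715. PSMD14 itself was close to 1, at 0.874 (1.00 and 0.764) in EV and 0.943 (1.06 and 0.842) in miR-155 cells. The 2 probes of PSMD3 disagreed, with 1.22 (1.58 and 0.946) in EV and 1.31 (1.6 and 1.06) in miR-155 cells for one and 0.586 (0.479 and 0.716) in EV and 0.766 (0.588 and 0.998) in miR-155 cells for the other, and PSMD6 was at 0.809 and 0.696.

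The 8 probes of activators and PI31 covered 5 genes, with 3 probes for PSME3 and 2 for PSME1. None lay above 1 in both orientations, against 31.4% of all kept probes in EV and 33.3% in miR-155 cells. In either cells 7 lay below 1 in both, against 44.7% and 50.6%. PSME2, the beta subunit of PA28, had signals of 76709.8 (Cy3) and 88014 (Cy5) in EV total RNA, 65379 and 59463 in EV IP RNA, 83079.8 and 85125 in miR-155 total RNA and 60278 and 54434 in miR-155 IP RNA. IP/T of PSME2 was 0.759 (0.775 and 0.743) in EV and 0.681 (0.655 and 0.708) in miR-155 cells. For PSME1, its alpha partner, probe A_23_P151610 gave signals of 46940.4 (Cy3) and 32069 (Cy5) in EV total RNA, 30002 and 35038 in EV IP RNA, 50498 and 52708 in miR-155 total RNA and 37438 and 38045 in miR-155 IP RNA, and probe A_23_P151614 gave 1662 (Cy3) and 1415 (Cy5) in EV total RNA, 534 and 512 in EV IP RNA, 1379.9 and 1279 in miR-155 total RNA and 494 and 494 in miR-155 IP RNA. The first had an IP/T of 0.836 (0.746 and 0.936) in EV and 0.732 (0.753 and 0.71) in miR-155 cells and the second of 0.341 (0.308 and 0.377) in EV and 0.372 (0.358 and 0.386) in miR-155 cells, so that both lay below 1 but differed by 1.29 on the log2 scale in EV cells, the widest disagreement between probes of a member in those cells.

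PSME3, the nuclear PA28 gamma, also had probes that differed, by 1.33 on the log2 scale in miR-155 cells, the widest range there. Signals were 1655 (Cy3) and 1766 (Cy5) in EV total RNA, 1049 and 1312 in EV IP RNA, 1734 and 1764 in miR-155 total RNA and 1295 and 1547 in miR-155 IP RNA for A_23_P164141. IP/T of PSME3 was 0.687 (0.793 and 0.594) in EV and 0.809 (0.892 and 0.734) in miR-155 cells. Probe A_24_P352864 gave 429 (Cy3) and 518 (Cy5) in EV total RNA, 172 and 231 in EV IP RNA, 532 and 650.1 in miR-155 total RNA and 207 and 229 in miR-155 IP RNA, with the IP clearly below the total. IP/T of PSME3 was 0.423 (0.538 and 0.332) in EV and 0.37 (0.431 and 0.318) in miR-155 cells. With A_24_P344307 the IP and total signals overlapped, at 1538 (Cy3) and 2003 (Cy5) in EV total RNA, 1273 and 1856 in EV IP RNA, 1517 and 1757 in miR-155 total RNA and 1413 and 1631 in miR-155 IP RNA, and IP/T was 0.876 (1.21 and 0.636) in EV and 0.93 (1.08 and 0.804) in miR-155 cells. For PSME4 (PA200), signals of 475 (Cy3) and 468 (Cy5) in EV total RNA, 328 and 430.5 in EV IP RNA, 572 and 704 in miR-155 total RNA and 497 and 505 in miR-155 IP RNA gave an IP/T of 0.797 (0.906 and 0.701) in EV and 0.789 (0.882 and 0.707) in miR-155 cells. The kept PSMF1 probe gave 1768 (Cy3) and 1403 (Cy5) in EV total RNA, 1258 and 1500.3 in EV IP RNA, 1906 and 2192 in miR-155 total RNA and 1609.9 and 1691 in miR-155 IP RNA, with the IP and total signals overlapping in EV cells. IP/T of PSMF1 was 0.872 (0.849 and 0.897) in EV and 0.807 (0.887 and 0.734) in miR-155 cells.

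The assembly chaperones were split. PSMD5, which binds the base during assembly, had signals of 772 (Cy3) and 880.2 (Cy5) in EV total RNA, 1165 and 1413 in EV IP RNA, 914 and 1113 in miR-155 total RNA and 1349 and 1492 in miR-155 IP RNA, all IP signals above the total signals. IP/T of PSMD5 was 1.56 (1.83 and 1.32) in EV and 1.41 (1.63 and 1.21) in miR-155 cells. PSMG3 was the lowest, with signals of 7062 (Cy3) and 7262 (Cy5) in EV total RNA, 4502 and 3769 in EV IP RNA, 6575 and 6517 in miR-155 total RNA and 3356 and 3001 in miR-155 IP RNA. IP/T of PSMG3 was 0.575 (0.534 and 0.62) in EV and 0.485 (0.456 and 0.515) in miR-155 cells. Its partner in early core assembly, PSMG4, was not matched on the array. PSMG1 lay above 1 at 1.21 and 1.28, and PSMD9 and PSMD10 below it at 0.616 and 0.653 in EV cells.

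PSMG2, which pairs with PSMG1 on the alpha ring, was the member whose IP/T differed most between the cells. Probe A_23_P118909 gave signals of 2967 (Cy3) and 3855 (Cy5) in EV total RNA, 3340.5 and 4424 in EV IP RNA, 2687 and 3435 in miR-155 total RNA and 5229 and 5562 in miR-155 IP RNA, and probe A_24_P399362 gave 2012 (Cy3) and 2301 (Cy5) in EV total RNA, 2280.0 and 2869 in EV IP RNA, 2505 and 3346 in miR-155 total RNA and 4599.9 and 5388 in miR-155 IP RNA. With both probes the IP and total signals overlapped in EV cells and did not overlap in miR-155 cells, where the IP was higher. IP/T was 1.14 (1.49 and 0.867) in EV and 1.78 (2.07 and 1.52) in miR-155 cells with the first probe and 1.19 (1.43 and 0.991) in EV and 1.72 (2.15 and 1.37) in miR-155 cells with the second. The miR-155 to EV ratio of IP/T was 1.56 (1.39 and 1.76) and 1.45 (1.51 and 1.39), below the 2-fold used in this study to call miR-155 targets. The total signal differed in sign between the probes, -0.15 and 0.43 on the log2 scale, whereas the IP signal was higher in miR-155 cells with both (0.49 and 0.96).

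The partner proteins that share the symbols lay below 1. PSMC3IP, a factor of meiotic and homologous recombination, had signals of 987 (Cy3) and 1183 (Cy5) in EV total RNA, 495 and 569 in EV IP RNA, 1120.2 and 1202 in miR-155 total RNA and 534 and 619 in miR-155 IP RNA. IP/T of PSMC3IP was 0.491 (0.576 and 0.418) in EV and 0.495 (0.552 and 0.444) in miR-155 cells. PSME3IP1, which binds PA28 gamma, had signals of 1335 (Cy3) and 1442 (Cy5) in EV total RNA, 967 and 1279 in EV IP RNA, 1529.5 and 1649 in miR-155 total RNA and 914 and 1029.6 in miR-155 IP RNA with A_23_P100441. IP/T of PSME3IP1 was 0.802 (0.959 and 0.671) in EV and 0.611 (0.673 and 0.554) in miR-155 cells.

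Genes with several probes give a further view of the error. Of the 12 members with more than 1 kept probe, 4 (PSMD3, PSMC1, PSMB1 and PSMA6) had probes on both sides of 1 in EV cells. For 6, the probes agreed within 0.5 on the log2 scale in both cells. The difference between dye orientations had a median size of 0.36 in EV cells and 0.28 in miR-155 cells. The median difference between the cells was 0.19. These sizes cannot be compared directly, since the first are between single arrays and the last is between means of the 2 orientations. A dye difference shared by both cells cancels in the last. Over the 63 probes, log2 IP/T of the 2 cells correlated with r = 0.92, and that of the 2 orientations with r = 0.67 in EV and r = 0.82 in miR-155 cells. The log2 miR-155/EV ratio of IP/T correlated between the orientations with r = 0.44. These coefficients are across probes, which share arrays, dyes and normalization and are not independent replicates.

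Between the vectors, proteasome transcripts had mostly higher signals in miR-155 cells. In total RNA, the signal was higher in both labellings for 42 of 63 probes (66.7%), against 37.3% of all kept probes, and lower in both for 6 (PSMA7, PSMD8, PSMG3 and 1 probe each of PSME1, PSME3 and PSMG2), against 34.5%. The differences were small: the median was 0.25 on the log2 scale (0.22 in Cy3 and 0.23 in Cy5), beside 0.02 over all kept probes, and 0 probes differed by at least 2-fold, against 1.06%. The higher share was found in both upper quartiles of mean signal, with 27 of 38 probes in the highest, against 37.0% of all its probes, and 11 of 19 in the third, against 39.4%. How much the median exceeded that of all probes moved with the processing. From scanner signals corrected with normexp it was 0.10 after quantile normalization and 0.06 after loess and Aquantile, beside -0.01 and -0.03 over all kept probes. In those settings the mean total signal was higher for 38 of 58 probes (65.5%, against 49.1% of all kept probes) and 33 of 54 (61.1%, against 43.5%), beside 51 of 63 here (81.0%, against 52.1%). With no normalization between arrays it was higher for 60 of 60, but then 90.5% of all kept probes were higher too and their median was 0.44, beside 0.68 for the members. In bulk RNA of a cell line, a larger share of cells with a high signal and more RNA per cell cannot be told apart.

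**Figure D4:**
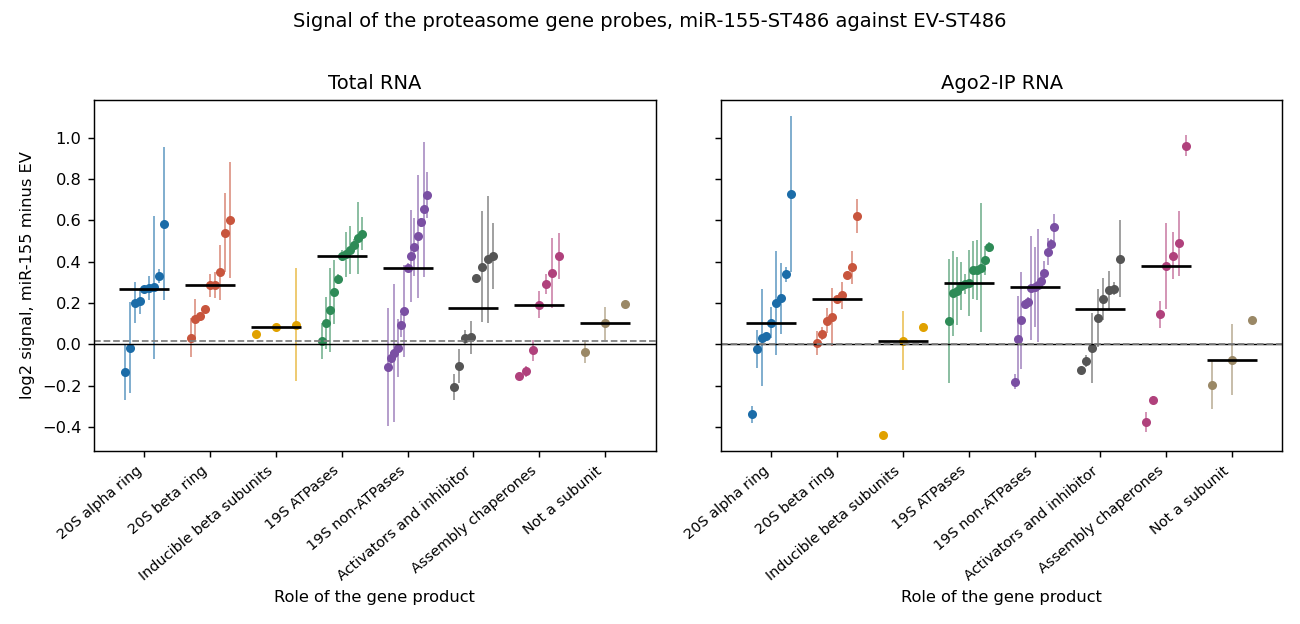
Log2 difference of the signal between miR-155 cells and EV cells for each of the 63 kept probes in total RNA (left) and Ago2-IP RNA (right), by role. Points are means of the Cy3 and Cy5 labellings, thin lines join the labellings, black bars are medians per role, and the dashed line is the median of all kept probes. Role medians lie above 0 in both panels, among them those of the 19S ATPases (0.43 and 0.30). The exception is the median of PSMC3IP and PSME3IP1 in IP RNA (-0.07).

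The difference was found in most roles. The median log2 difference of the total signal was 0.43 for the 19S ATPases, 0.37 for the non-ATPases, 0.29 for the constitutive beta ring and 0.27 for the alpha ring. In the constitutive beta ring 8 of 9 probes were higher in both labellings, against 37.3% of all kept probes. The median was 0.19 for assembly chaperones, 0.18 for activators and PI31, and 0.09 for the inducible beta subunits. These medians are over probes and not genes. PSMC6 supplied 4 and PSMC1 3 of the 11 ATPase probes. PSMC2 was at 0.44, but PSMC3, PSMC4 and PSMC5 were at 0.17, 0.02 and 0.10, and below 0 in Cy5. Among the non-ATPases, PSMD6 and PSMD11 were at 0.52 and 0.43, and PSMD4, PSMD8 and PSMD13 at -0.04, -0.07 and -0.02. The largest value (Cy3 and Cy5 in parentheses) was that of PSMD1, 0.72 (0.61 and 0.84) with A_23_P209740, beside 0.37 (0.35 and 0.39) with its other probe. Next was PSMD12, a lid subunit, whose probe A_32_P12639 had signals of 2410.2 (Cy3) and 1572 (Cy5) in EV total RNA, 1462 and 1771 in EV IP RNA, 3023 and 3098 in miR-155 total RNA and 1865 and 1632 in miR-155 IP RNA. Its total signal differed by 0.65 (0.33 and 0.98), unevenly between the dyes, and the other PSMD12 probe by 0.59 (0.61 and 0.57). At the other end stood the PSME1 probe A_23_P151614 with -0.21 (-0.27 and -0.15) and the PSMG2 probe A_23_P118909 with -0.15 (-0.14 and -0.17), each contradicted in sign by the other probe of its gene. The 2 labellings correlated with r = 0.41 over the 63 probes.

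The IP fractions differed alike. The IP signal was higher in miR-155 cells in both labellings for 43 probes (68.3%), against 34.4% of all kept probes, and lower in both for 8 (PSMA7, PSMB9, PSMD8, PSMD9, PSMG3, PSME2 and 1 probe each of PSME1 and PSME3IP1), against 34.2%. The median log2 difference was 0.22, beside 0.00 over all kept probes, and 0 probes differed by at least 2-fold, against 2.33%. The IP and total differences share no channel, but both rest on the same pair of slides.

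IP/T itself differed little between the cells. It was higher in miR-155 cells in both orientations for 19 probes (30.2%), against 26.7% of all kept probes, and lower for 24 (38.1%), against 32.7%, shares near those of all probes. No member probe differed by 2-fold or more (0 of 63, against 1.63%). The median log2 of the ratio was -0.05, beside -0.02 over all kept probes, and turned to 0.02 and 0.03 with the normexp settings. PSMG2, described above, was highest, and PSMD12 with A_32_P12639 (0.69) and PSMB9 (0.692) were lowest.

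Promoters of the members were searched for the core of the antioxidant response element, TGACNNNGC, on both strands. Proteasome genes are among the known targets of NRF factors, and any part of these factors in the signals was not tested. RefSeq promoter windows of 300 bases (250 before to 50 after the start site, GRCh38.p14) were given for 42 of the 48 genes, in 53 windows. The letters occurred in 15 of the 53 windows (28.3%), of 15 genes, and in 13.3% of the 35116 windows of all genes, which were not matched in base composition. Windows around the match are shown for the genes of the probes with the largest total differences, PSMD1 and PSMD12, and for PSMC5 and PSMB3, the most depleted subunits of the ATPase and beta rings, with the 9 matching letters in capitals. A match on the opposite strand reads GCNNNGTCA.
PSMD1, chr2:231056896-231056916, gene on the + strand: aggaggcgacTGACTGAGCag
PSMD12, chr17:67366724-67366752, gene on the - strand: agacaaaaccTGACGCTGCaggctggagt
PSMC5, chr17:63827654-63827682, gene on the + strand: gaccggatctGCTGTGTCAgcgccgccct
PSMB3, chr17:38752627-38752655, gene on the + strand: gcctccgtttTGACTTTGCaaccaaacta
The median log2 difference of the total signal was 0.18 both for the 15 genes with a match (range -0.03 to 0.62) and for the 26 without one (range -0.07 to 0.58). The median log2 IP/T was -0.41 and -0.73 with a match and -0.47 and -0.41 without, in EV and miR-155 cells. A match is a string of letters and not a known site, and the windows of a gene with several start sites overlap in part.

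Proteasome-linked genes with other symbols lay closer to all probes. Of 26 listed genes, 24 were matched and 22 had 33 kept probes. In EV cells 16 of these probes lay below 1 in both orientations, against 44.7% of all kept probes, and 7 above, against 31.4%. In miR-155 cells 14 lay below, against 50.6%, and 10 above, against 33.3%, shares near those of all probes. The median log2 IP/T was -0.14 and -0.03. Of the genes whose products bind the 19S cap directly, ADRM1, a ubiquitin receptor, had an IP/T of 0.478 (0.336 and 0.681) in EV and 0.472 (0.392 and 0.569) in miR-155 cells with 1 probe. The other ADRM1 probe was at 0.517 in EV and 0.489 in miR-155 cells. UCHL5, the deubiquitinase that ADRM1 recruits, was at 0.484 (0.45 and 0.521) in EV and 0.465 (0.4 and 0.54) in miR-155 cells with 1 probe. With the other UCHL5 probe it was at 0.563 (0.764 and 0.415) in EV and 0.468 (0.475 and 0.46) in miR-155 cells. USP14, another deubiquitinase of the cap, lay close to 1 at 0.962 (0.931 and 0.994) in EV and 0.978 (0.85 and 1.13) in miR-155 cells. SEM1, the small lid subunit, was above 1 at 1.34 (1.36 and 1.32) in EV and 1.87 (1.88 and 1.85) in miR-155 cells. POMP, which helps to mature the core, had an IP/T of 0.707 in EV and 0.593 in miR-155 cells.

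On the enriched side, UBE3C, a ubiquitin ligase of the proteasome, had an IP/T of 1.97 (2.12 and 1.84) in EV and 2.51 (2.65 and 2.37) in miR-155 cells. The highest was NFE2L2, the factor NRF2, at 5.36 (7.3 and 3.94) in EV and 7.43 (8.95 and 6.17) in miR-155 cells, whereas NFE2L1, which drives proteasome genes when activity is blocked, was at 1.13 (1.37 and 0.938) in EV and 0.982 (1.12 and 0.857) in miR-155 cells, on both sides of 1. The total signal was higher in miR-155 cells in both labellings for 12 of the 33 probes, against 37.3% of all kept probes, and lower for 6, against 34.5%, with a median log2 difference of 0.05.

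In each of 11 other ways of processing, the members' median IP/T was below that of all kept probes in both cells. With normexp correction the members' median log2 IP/T was -0.31 and -0.33 with quantile normalization, beside -0.07 and -0.08 over all kept probes, and -0.29 and -0.23 with loess and Aquantile, beside -0.01 in both cells. The share of member probes below 1 in both orientations was then 46.6% and 63.8%, and 48.1% and 57.4%, against 35.0% and 47.0%, and 32.0% and 38.4%, of all kept probes. PSMD7, PSMB4 and PSMC5 kept their side of 1, whereas PSMB9 and the PSMB2 probe A_23_P170058 did not pass the filters there. In the normexp settings log2 IP/T in EV cells was 1.02 and 0.99 for PSMD7, 0.77 and 0.78 for PSMB4, and -1.30 and -1.09 for PSMC5.

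**Figure D5:**
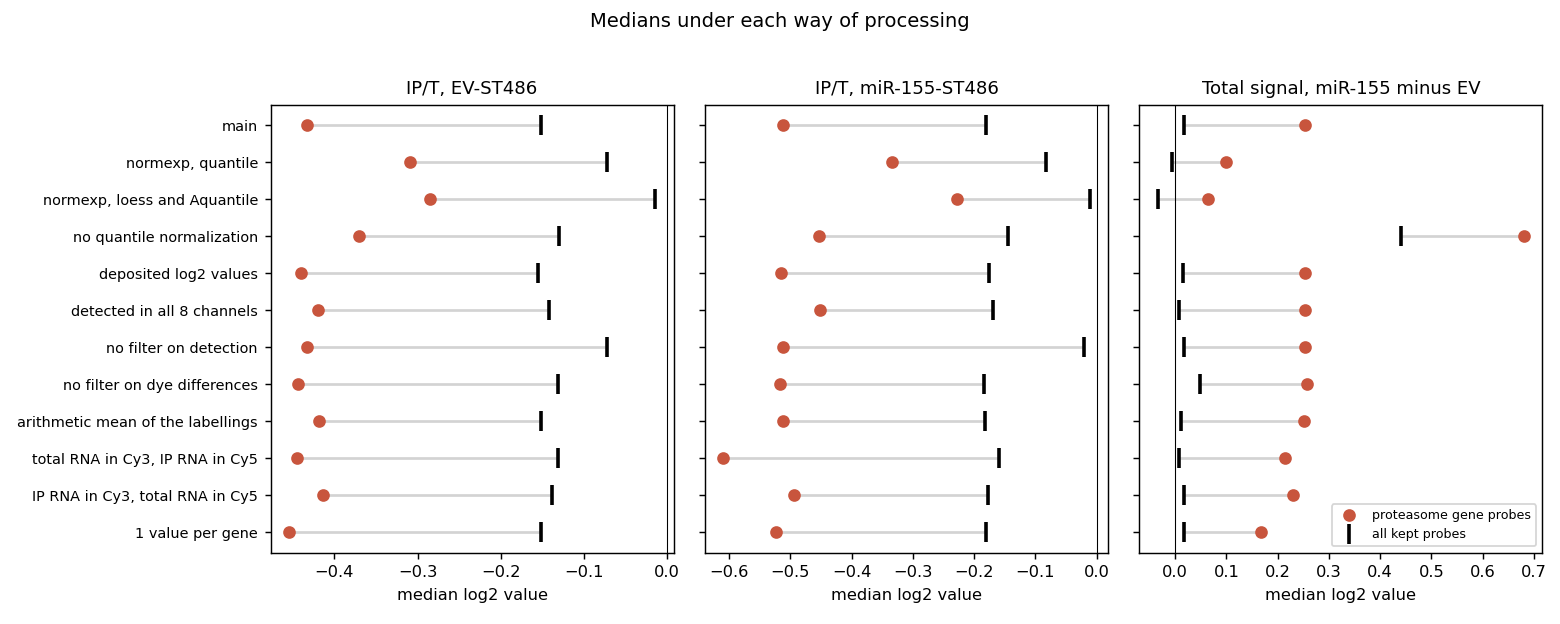
Median log2 IP/T in EV cells and miR-155 cells and median log2 difference of the total signal, for the proteasome gene probes (points) and all kept probes (bars), under 12 ways of processing, the first of which is the one used in the text. The points lie below the bars for IP/T and above them for the total signal in each row.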

How the data were processed

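RNA of 4 samples (EV total, EV IP, miR-155 total, miR-155 IP) was measured on 4 two-color Agilent 44k arrays of 41000 probes, each deposited under both its channels. The deposited files hold background-subtracted, dye-normalized intensity values from the scanner software Feature Extraction (Agilent, version 10.5.1.1), as per the file headers. The authors also deposited log2 values of 14453 probes after quantile normalization, with column medians of 9.89 to 9.91. Of these, 14446 were kept here and 99.9% of values differed by no more than 0.05. In the analysis given here, spots of a probe were averaged, set to at least 1, and quantile-normalized on the log2 scale. Probes were kept when positive, significant and well above background in at least 4 of 8 channels (19469) and within 2-fold between labellings, which removed 3940. The labellings were averaged and IP/T calculated, as in the study's methods. Pandas 2.3.3, NumPy 2.4.6 and Python 3.11.15 were used, with limma 3.58.1 in R 4.3.3 for normexp (offset 50, 33 local backgrounds above 500 replaced), loess and Aquantile. The number of arrays limits the precision, and no test was possible with 1 RNA sample per condition. The calculations were tested on simulated data. Members, roles and lists were chosen with earlier results of these data known. Named with all channel values were the cutting subunits and their counterparts, activators and PI31, the highest and lowest probe of each role, up to 10 probes outside 2-fold, and the 2 largest and 2 lowest total differences. The second PSMG2 probe was added after its values were seen. Roles come from general knowledge. RefSeq tables supplied symbols for 23958 probes, promoters and the miRNA. The alternatives were the background correction, normalization, deposited log2 values, both filters, the mean, each dye orientation alone, 1 value per gene, and a threshold of 1.5. Protein sequences were not used here.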

Additional observations from a re-analysis of the deposited data

Results flagged for a closer look

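Of the kept member probes, 1 had IP/T on opposite sides of 1 in the 2 cells in both dye orientations. It was probe A_32_P43217 for PSMA6, an alpha ring subunit, with signals of 84449 (Cy3) and 85564 (Cy5) in EV total RNA, 85832 and 86007 in EV IP RNA, 97951 and 107503 in miR-155 total RNA and 88014 and 88559.7 in miR-155 IP RNA. IP/T was 1.01 (1.02 and 1.00) in EV and 0.86 (0.904 and 0.819) in miR-155 cells, and the log2 ratio of these was -0.23 (-0.17 and -0.29). The EV values differed from 1 by less than the labellings of most members differed from each other. The difference was not tested, and slide and vector cannot be told apart in it.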

How the results depend on the processing

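Values are given as EV then miR-155 where a pair stands. Normexp correction with quantile normalization gave a median log2 IP/T of -0.31 and -0.33, a total signal difference of 0.10, a log2 miR-155/EV ratio of IP/T of 0.021 (reversed), 27 EV probes below 1 in both orientations, and 4 and 4 outside 2-fold. Normexp with loess and Aquantile gave -0.29 and -0.23, 0.063, 0.031 (reversed), 26, and 3 and 3, an IP signal difference of 0.13, and constitutive beta ring medians of 0.15 and 0.024 (reversed). With no quantile normalization the EV median was -0.37, the total difference 0.68 and the IP difference 0.64. With 1 value per gene the total difference was 0.17 and the miR-155 median of the assembly chaperones -0.034 (reversed). A threshold of 1.5-fold placed 25 and 33 probes outside it in either direction, and no share of all kept probes was calculated for it. With a single dye orientation the medians ranged from -0.44 to -0.41 and from -0.61 to -0.49, the total difference from 0.22 to 0.23, the IP difference from 0.17 to 0.27 and the ratio of IP/T from -0.040 to -0.010. In that orientation alone, 44 to 51 and 48 to 49 probes lay below 1, a looser rule than the one that asked for both orientations. Why these values moved was not tested. The remaining alternatives (deposited log2 values, both filters, the arithmetic mean) reversed none of these medians. Among single probes and role medians, 530 values moved by less than the spread between labellings, 91 moved further, and the 3 reversed are those given above. For single probes, a change of sign was called reversed only if the value was at least 2-fold from 1. For medians, both orientations had to lie on the same side and the median had to exceed their spread. Weaker values could change sign and are still counted among the 530 or the 91. No paired analysis was possible because each condition had 1 RNA sample and its labels number only the dyes. The 4 arrays on 2 slides, without biological replicates, limit every comparison.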
